A study of Mus musculus with 4 samples.

Results

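The genes described here are the variable (V) genes of the T cell receptor α and β chains, which were every gene of the deposited table whose symbol starts with Trav or Trbv, without those whose symbol carries -dv. They numbered 155 of 33696 genes, 120 at the α locus and 35 at the β locus, and 10 α genes with -dv in the symbol were left out. They were measured by 5′ single-cell RNA sequencing of liver cells labelled as CD45+. The mice carried Stab2-CrexERT2 together with the R26-LSL-tdT reporter, had been exposed to tamoxifen at E9.5 and were 2 months old. In these mice Cre is driven by Stab2, an endothelial scavenger receptor gene, so that tdTomato marks cells in which Stab2-driven Cre was active after tamoxifen, together with their descendants. Both groups share this genotype and treatment and differ in the sort, tdTomato+ or tdTomato-, and every sort had a single gene expression library with a matching library of γ and δ chain contigs. The number of mice behind a library is not stated in the labels, and the tdTomato+ libraries were batch 1 and the tdTomato- libraries batch 2, so that sort and batch cannot be told apart. With 1 library per sort there is no replicate and no test, and the 95% intervals given below cover counting error only.

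By recombination in developing T cells, β V genes are joined to D and J segments and α V genes to J segments. A T cell therefore usually expresses 1 productive β chain and 1 or a pair of α chains. The δ genes lie inside the α locus, and a number of α V genes can also be joined to δ segments. γδ T cells can carry a rearranged β gene, because β, γ and δ genes rearrange at the same stage in the thymus. Invariant natural killer T (NKT) cells of the mouse use Trav11 in their α chain with β chains of the Trbv13, Trbv29 and Trbv1 genes, and mucosal-associated invariant T (MAIT) cells use Trav1 with Trbv13 or Trbv19. Both kinds depend on Zbtb16, a transcription factor gene of innate-like T cells, and NKT cells are common in mouse liver.

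Cells were grouped by gates on raw counts of unique molecular identifiers (UMIs). The Cd4, Cd8b1, Foxp3 and Zbtb16 gates took cells with at least 2 UMIs of the CD3 genes, at least 2 of Trac, Trbc1 and Trbc2, at most 1 of Trdc and at least 1 of the gate's gene, and no cell entered more than 1 of these 4 gates. The Trdc gate took cells with at least 2 UMIs of Trdc, the δ constant gene. The Gzmk gate, a subset of it, also needed at least 2 UMIs of the CD3 genes and 1 of Gzmk, a granzyme gene. In a cell, a V gene was called when it led its locus with at least 2 UMIs and at least 2/3 of the UMIs of that locus, and usage is the percent of a gate's called cells. Levels are CPM, the UMIs of a gene summed over a gate and scaled to the gate's total UMIs.

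The results turn on a few sequences. The first set shows the γ chain junctions, taken from the contigs, that accompanied the most frequent V calls of the Trdc gate, from the conserved cysteine codon of the V gene to the J gene.

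Trbv5-linked junction, TRGV4 to TRGJ1: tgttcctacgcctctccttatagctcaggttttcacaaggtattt
Trbv12-2-linked junction, TRGV1 to TRGJ4: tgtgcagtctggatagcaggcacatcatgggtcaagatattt
Shared TRGV4 to TRGJ1 junction: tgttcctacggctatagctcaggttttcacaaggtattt
Trbv19-linked junction, TRGV4 to TRGJ1: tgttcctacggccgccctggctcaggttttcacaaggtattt
Trav16-linked junction, TRGV5 to TRGJ1: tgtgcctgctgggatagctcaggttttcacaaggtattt

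The second set gives the last 60 bases of the V exon of Trav13-2, Trbv5 and Trbv12-2, which led calls of the γδ and Zbtb16 gates, and of Trbv13-2, which was detected together with Trbv12-2 (GRCm38, GENCODE M21, + strand). Capitals mark the last in-frame cysteine codon, where the junction begins.

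Trav13-2, chr14:53635340-53635399: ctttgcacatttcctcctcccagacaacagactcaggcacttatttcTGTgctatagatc
Trbv5, chr6:41062744-41062803: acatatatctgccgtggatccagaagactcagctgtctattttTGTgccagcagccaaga
Trbv12-2, chr6:41119305-41119364: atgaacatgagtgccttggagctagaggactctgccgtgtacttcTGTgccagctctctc
Trbv13-2, chr6:41121773-41121832: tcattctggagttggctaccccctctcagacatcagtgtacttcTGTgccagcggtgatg

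The third set compares the copies of Trav11 over a 120-base stretch of the V exon, since the NKT receptor is counted over these copies. Capitals mark the positions that differ among the 3 genes in this stretch.

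Trav11, chr14:53519611-53519730: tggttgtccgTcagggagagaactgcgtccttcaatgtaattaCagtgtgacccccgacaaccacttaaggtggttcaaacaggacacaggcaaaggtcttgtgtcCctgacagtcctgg
Trav11d, chr14:52824665-52824784: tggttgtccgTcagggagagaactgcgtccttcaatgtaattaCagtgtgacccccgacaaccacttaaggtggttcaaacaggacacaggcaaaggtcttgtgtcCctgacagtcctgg
Trav11n, chr14:53135430-53135549: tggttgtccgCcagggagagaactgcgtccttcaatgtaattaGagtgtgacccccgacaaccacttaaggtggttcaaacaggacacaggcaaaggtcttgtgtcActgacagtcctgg

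After the cell filter, 17509 tdTomato+ and 18173 tdTomato- cells were kept, with a median of 9083 and 7168 UMIs, and 80 of their barcodes occurred in both libraries, at most 1 of them in any gate. In the tdTomato+ library the Cd4 gate held 1302 cells, the Cd8b1 gate 1960, the Foxp3 gate 292, the Zbtb16 gate 1160, the Trdc gate 468 and the Gzmk gate 72. In the tdTomato- library the same gates held 763, 1540, 84, 1073, 7229 and 1691 cells. The libraries differed in endothelial RNA. An endothelial gate, made of cells with at least 4 UMIs of Stab2 and Kdr and none of Ptprc, the CD45 gene, held 6171 (35.2%) of the tdTomato+ and 15 of the tdTomato- cells, although the labels give both sorts as CD45+. Between 53.5% (Cd8b1) and 76.4% (Gzmk) of the tdTomato+ cells of a gate had at least 0.2% of their UMIs in 10 endothelial markers, against 0% to 1.06% in the tdTomato- library. The summed level of these markers, among them Stab2, Kdr and Clec4g, ranged from 9293 to 12751 CPM in tdTomato+ gates and from 130.2 to 292.1 CPM in tdTomato- gates, with no marker at 0. CPM is taken over all UMIs of a gate, these included, whereas usage is counted over called cells, and usage is therefore the main measure below. Red cell RNA differed too. The summed level of 4 erythroid markers was 2470 CPM (tdTomato+) and 64.5 CPM (tdTomato-) in the Cd4 gate, 1257 and 1456 CPM in the Cd8b1 gate and 1696 and 5.08 CPM in the Foxp3 gate. It was 4970 and 668 CPM in the Zbtb16 gate, 1786 and 1424 CPM in the Trdc gate and 9.35 and 1788 CPM in the Gzmk gate. The part of endothelial and red cell RNA in differences of CPM was not tested, other than by counts of members without cells that held endothelial RNA.

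The gates carried the genes that define them. Cd40lg, a CD4 T cell gene, stood at 122 CPM (tdTomato+) and 199 CPM (tdTomato-) in the Cd4 gate and at 5.58 and 4.95 CPM in the Cd8b1 gate. Ctla4, an inhibitory receptor gene of regulatory T cells, stood at 749 and 1675 CPM in the Foxp3 gate and at 173 and 286 CPM in the Cd4 gate. In the Zbtb16 gate Cxcr6, a chemokine receptor gene of liver-resident lymphocytes, stood at 416 and 696 CPM, and Klrb1c, the NK1.1 gene of the NKT list, at 6.13 and 5.46 CPM. Klrb1c was low in the Gzmk gate too, at 5.61 and 2.07 CPM, so its level says little about NKT identity. The Zbtb16 gate is therefore named by its gene. The tdTomato- Zbtb16 gate also held γδ cells: Trdc stood at 27.9 CPM there, against 1.19 CPM in the tdTomato+ gate, and 116 of its 1073 cells carried a γ or δ contig, against 10 of 1160. In the Trdc gate 94.9% of the tdTomato+ and 98.2% of the tdTomato- cells had at least 2 UMIs of the CD3 genes.

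β calls were frequent in the αβ gates and rare in the B and endothelial gates, the only gates of other cells that were read. A β call was made in 77.4% (tdTomato+) and 79.6% (tdTomato-) of Cd4 cells, in 79.4% and 79.8% of Cd8b1 cells, in 74.7% and 71.4% of Foxp3 cells and in 69.9% and 53.7% of Zbtb16 cells. In B cells, gated on Cd79a and Cd79b as a cell type that should lack these genes, it was made in 0 of 310 and 0 of 363 cells, which allows shares of up to 0.968% and 0.826%, taking the limit as 3 counts of the total (median 6604 and 5892 UMIs). In tdTomato+ endothelial cells it was made in 0.243% of 6171 cells (median 7503 UMIs). The Trdc gate lay in between, with a β call in 35% (95% exact binomial interval 30.7 to 39.6) of tdTomato+ and 44.5% (43.3 to 45.6) of tdTomato- cells. In the Gzmk gate the shares were 51.4% (39.3 to 63.4) and 69.7% (67.4 to 71.8). α calls were fewer. They were made in 48.5% and 50.6% of Cd4 cells, 56.9% and 60.5% of Cd8b1 cells and 26.2% and 23.1% of Zbtb16 cells, and in the Trdc gate in 16.0% and 29.6%. In the Gzmk gate the α share was 22.2% (13.3 to 33.6) among tdTomato+ cells and 66.6% (64.3 to 68.8) among tdTomato- cells, which is above the α share of every αβ gate.

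**Figure D1:**
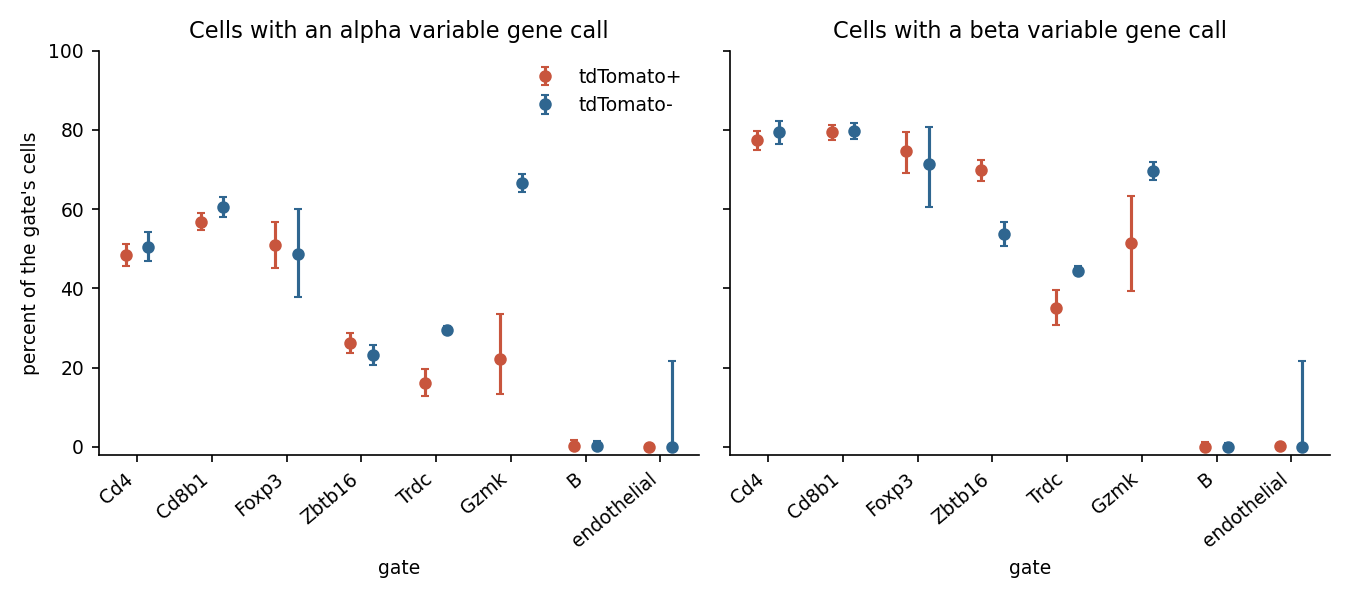
Percent of each gate's cells with an α V call (left) and a β V call (right) in the tdTomato+ (red) and tdTomato- (blue) library. Points are shares and bars 95% exact binomial intervals, which cover counting error only; B and endothelial gates sit at or near 0, and the tdTomato- Gzmk gate has the highest α share, 66.6%.

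Depth moved these shares. When each cell was thinned to 3000 UMIs, which left out between 0 and 43 cells of a tdTomato+ or tdTomato- αβ or Gzmk gate and 237 of the tdTomato- Trdc gate, β calls were made in 51.5% and 67.8% of Cd4 cells, 54.4% and 47.5% of Zbtb16 cells, 19.8% and 30.6% of Trdc cells and 29.2% and 48.5% of Gzmk cells. The thinned α share of the Gzmk gate was 6.94% among tdTomato+ cells and 59.1% among tdTomato- cells.

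Of the 35 β genes, 25 were called in at least 1 cell of a gate, and 10 never were. Of these 10, 7 had no UMI in any kept cell (Trbv6, Trbv7, Trbv8, Trbv9, Trbv18, Trbv25 and Trbv27), and Trbv11, Trbv28 and Trbv12-3 had 1, 1 and 13. Of the 120 α genes, 84 were called and 36 never were, and 11 of those 36 had no UMI in any cell. The annotation lists 13 β and 20 α members as pseudogenes.

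In the Cd4 gate 4 β genes led both libraries. Trbv1 took 15% of 1008 tdTomato+ calls and 11% of 607 tdTomato- calls, Trbv31 took 12.6% and 13.8%, Trbv13-1 took 11.2% and 12.4%, and Trbv5 took 9.72% and 12.5%. In the Cd8b1 gate Trbv1 (13.4% and 12.9% of 1557 and 1229 calls), Trbv13-1 (12.8% and 13.5%) and Trbv5 (10.1% and 12.4%) led. Across the 25 called β genes, which is a comparison of genes and not of replicates, usage in the libraries had a Pearson r of 0.92 in the Cd4 gate, 0.96 in the Cd8b1 gate and 0.94 in the Zbtb16 gate. In the Foxp3 gate it was 0.80, with 218 and 60 calls.

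**Figure D2:**
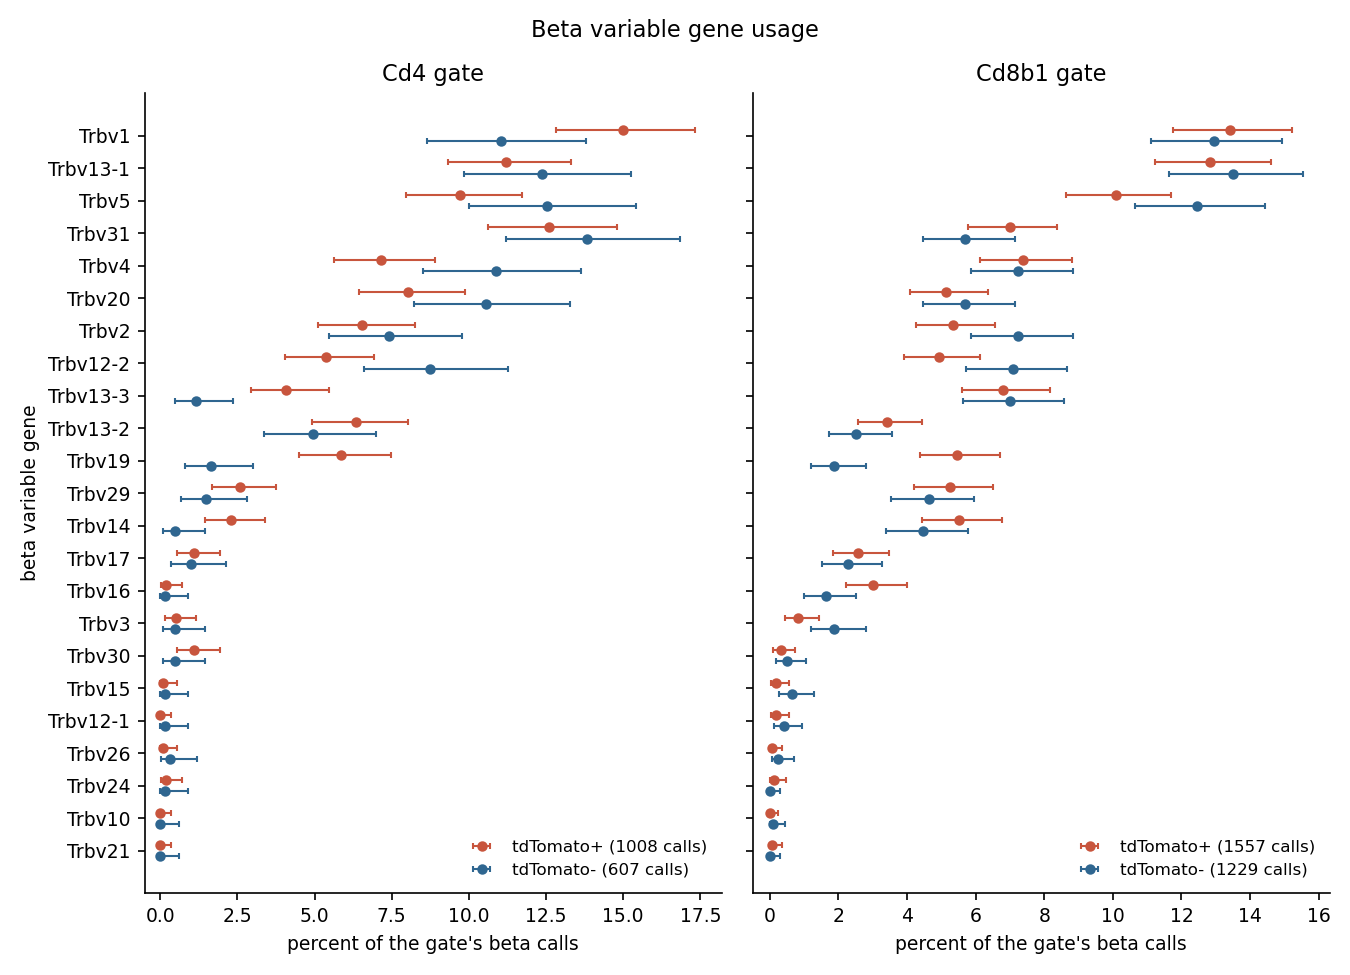
Usage of β V genes, as percent of the gate's β calls, in the Cd4 (left) and Cd8b1 (right) gate of the tdTomato+ (red) and tdTomato- (blue) library. Points are shares and bars 95% exact binomial intervals; Trbv19 lies apart between the libraries in both gates, and Trbv14 and Trbv16 are higher in the Cd8b1 than in the Cd4 gate.

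CD4 and CD8 cells used β genes unequally, in the same direction in both libraries. Trbv16 took 0.198% of tdTomato+ and 0.165% of tdTomato- Cd4 calls, and 3.02% and 1.63% of Cd8b1 calls. On the log2 scale (0.5 counts added to each side), the Cd8b1 over Cd4 usage ratio was 3.62 (interval 1.99 to 7.01) among tdTomato+ cells and 2.75 (0.66 to 8.68) among tdTomato- cells. Trbv14 took 2.28% and 0.494% of Cd4 calls and 5.52% and 4.48% of Cd8b1 calls, with log2 ratios of 1.25 (0.60 to 2.01) and 2.97 (1.56 to 5.50). Both genes were thus a small part of CD4 and a larger part of CD8 calls in either library.

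Trbv13-3 was higher in CD8 cells too, with 4.07% and 1.15% of Cd4 calls and 6.81% and 7.0% of Cd8b1 calls, and so was Trbv29, with 2.58% and 1.48% against 5.27% and 4.64%. Trbv31 went the other way, from 12.6% and 13.8% of Cd4 calls to 7.0% and 5.70% of Cd8b1 calls, a log2 ratio of -0.85 (-1.23 to -0.47) and -1.28 (-1.76 to -0.81). Trbv20 (8.04% and 10.5% against 5.14% and 5.70%) and Trbv13-2 (6.35% and 4.94% against 3.40% and 2.52%) were also lower in CD8 cells, with intervals of the ratio that held no value of 0 in either library. For Trbv17 the ratio was 1.19 (0.25 to 2.35) in the tdTomato+ library, and in the tdTomato- library its interval reached -0.09.

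The same contrast was read on CPM over all genes. A gene counted as 2-fold apart with at least 20 CPM on 1 side, a ratio of at least 2 either way and an interval that did not hold 1. The interval treats UMIs as independent. UMIs of a V gene come only from the cells that carry it, so the interval is too narrow for members. Shares of members beside those of all genes may therefore be too high, most of all in small gates. Between the Cd8b1 and Cd4 gates 4 of the 18 members at that level were apart in the tdTomato+ library, where 1.85% of all 7632 genes tested were. They were Trbv16, Trbv17, Trav16n and Trbv14, each higher in CD8 cells. In the tdTomato- library 9 of 26 members were apart, where 4.09% of 6680 genes were. Of these, 6 were higher in CD8 cells, namely Trbv16, Trbv14, Trbv13-3, Trbv29, Trbv17 and Trav7d-3, and 3 were lower, namely Trbv31, Trav13-2 and Trbv20. The members at that level had a median log2 ratio of 0.11 and 0.12, beside -0.08 and -0.04 for all genes tested.

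Between the libraries, Trbv19 and Trbv12-2 were the 2 members whose usage ratio had an interval clear of 0 in both the Cd4 and the Cd8b1 gate. Trbv19 took 5.85% of tdTomato+ and 1.65% of tdTomato- Cd4 calls, a log2 ratio of 1.77 (0.85 to 2.96), and 5.46% and 1.87% of Cd8b1 calls, a ratio of 1.52 (0.87 to 2.28). Trbv12-2 was lower in the tdTomato+ library, with 5.36% against 8.73% of Cd4 calls (log2 ratio -0.71, -1.28 to -0.13) and 4.95% against 7.08% of Cd8b1 calls (-0.52, -0.98 to -0.06). Trbv12-2 was often detected with Trbv13-2. Counted as 1 gene, the pair took 18.5% (16.2 to 20.9) against 20% (17.0 to 23.3) of Cd4 calls. It took 13.7% against 15.8% of Cd8b1 calls. The intervals overlapped in both gates, which does not exclude a difference. Without cells that held endothelial RNA, Trbv19 took 7.18% of tdTomato+ Cd4 and 4.35% of tdTomato+ Cd8b1 calls. Trbv13-3 differed in Cd4 cells (4.07% against 1.15%, log2 ratio 1.74, 0.65 to 3.22) but took 6.81% and 7.0% of Cd8b1 calls. Trbv14 likewise took 2.28% against 0.494% of Cd4 calls and 5.52% against 4.48% of Cd8b1 calls. A group of Trbv13-3, Trbv17, Trbv19 and Trbv29, put together after these values were seen, held 13.6% (11.5 to 15.9) of tdTomato+ and 5.27% (3.63 to 7.36) of tdTomato- Cd4 calls, and 20.1% and 15.8% of Cd8b1 calls. Without cells that held endothelial RNA the tdTomato+ shares were 12.9% and 17.9%.

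On CPM, 6 of 20 members in the Cd4 gate were 2-fold apart between the libraries, where 18.4% of 7748 genes were. Trbv14 was higher in the tdTomato+ library (20.1 against 7.61 CPM), and Trav13-2 (7.63 against 40.6 CPM), Trav8d-1, Trbv4, Trbv20 and Trbv5 were lower. In the Cd8b1 gate 5 of 23 members were apart, where 15.4% of 7508 genes were, all 5 lower in the tdTomato+ library and led by Trav7d-3 (6.22 against 35.8 CPM). With so few members at that level, these shares, counted either way, lay not far above those of all genes. Counted as lower in the tdTomato+ library only, 5 of 20 and 5 of 23 members were apart. Of all genes, 1.78% and 0.533% were lower by this rule. Without cells that held endothelial RNA 3 of 21 members were apart in the Cd4 gate, where 1.70% of all genes were, and 1 of 27 in the Cd8b1 gate, where 0.578% were. Markers of other lymphocytes also differed in the Cd4 gate, where 6 NK cell markers summed to 49.5 CPM (tdTomato+) and 384 CPM (tdTomato-), Trdc stood at 0.769 and 9.74 CPM and Cd8a at 2.78 and 35.9 CPM. Among cells without a Trdc UMI 6 of 19 members of this gate were apart, where 18.4% of 7735 genes were. The part of the other markers was not tested. The median log2 ratio of members at 20 CPM was -0.83 and -0.61, beside 0.13 and 0.11 for all genes tested, and total β level was 830 against 1351 CPM in the Cd4 gate and 850 against 1259 CPM in the Cd8b1 gate.

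The Foxp3 gate, the regulatory T cells, was small, with 218 tdTomato+ and 60 tdTomato- β calls and 149 and 41 α calls. Trbv5 (12.8% and 16.7%), Trbv31 (11% and 16.7%) and, in the tdTomato+ library, Trbv13-1 (12.4% and 6.67%) were among its most used β genes. In the tdTomato- library Trbv12-2, with 8 of 60 calls, was used more than Trbv13-1. No member had a usage ratio between the libraries whose interval excluded 0. On CPM 20 of its 26 members at 20 CPM were 2-fold apart, where 25.0% of 8060 genes were, 18 of them lower in the tdTomato+ library and 2 higher, Trbv29 (29.2 against 2.03 CPM) and Trbv19 (47.8 against 18.3 CPM). In the tdTomato- gate the α and β calls held a median of 8 UMIs each and the gate 984822 UMIs in all, so that a few cells bring a member to 20 CPM. Trav8d-2 had 0.658 CPM in the tdTomato+ and 25.4 CPM in the tdTomato- gate, and Trav4-3 had 11 and 107 CPM with 4 calls in each library.

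The Zbtb16 gate used few β genes. Trbv12-2 took 20.5% (17.7 to 23.4) of 811 tdTomato+ and 25.2% (21.7 to 28.9) of 576 tdTomato- calls, Trbv13-1 took 18.2% and 14.6%, and Trbv29 took 15.9% and 13.5%. Trbv1 took 13.6% and 9.03%, Trbv13-3 took 12.6% and 7.99%, and Trbv13-2 took 6.04% and 3.82%. These 6 genes, grouped after their values were seen, held 86.8% of tdTomato+ and 74.1% of tdTomato- calls, against 44.5% and 39.7% in the Cd4 gate. In cells without any Trdc UMI the tdTomato- share was 82.1% and the tdTomato+ share 87.3%, so the libraries lay nearer to each other in these cells.

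Against the Cd4 gate, Trbv29 had a log2 usage ratio of 2.60 (2.01 to 3.29) among tdTomato+ cells and 3.12 (2.19 to 4.37) among tdTomato- cells, and Trbv12-2 one of 1.92 (1.48 to 2.40) and 1.52 (1.06 to 2.01). Trbv13-3 had ratios of 1.62 (1.09 to 2.19) and 2.71 (1.63 to 4.18). Trbv2, Trbv4, Trbv5, Trbv20 and Trbv31 were lower in both libraries. Trbv2 took 0.493% and 0.694% of Zbtb16 calls against 6.55% and 7.41% of Cd4 calls, and Trbv31 took 1.97% and 2.43% against 12.6% and 13.8%. Trbv19, a gene of MAIT cells, took 2.59% and 1.56% of Zbtb16 calls. On CPM 2 of 11 members of the gate were 2-fold apart between the libraries, Trav13-2 and Trbv3, both lower in the tdTomato+ library, where 14.8% of 7752 genes were apart. Without cells that held a Trdc UMI none was.

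**Figure D3:**
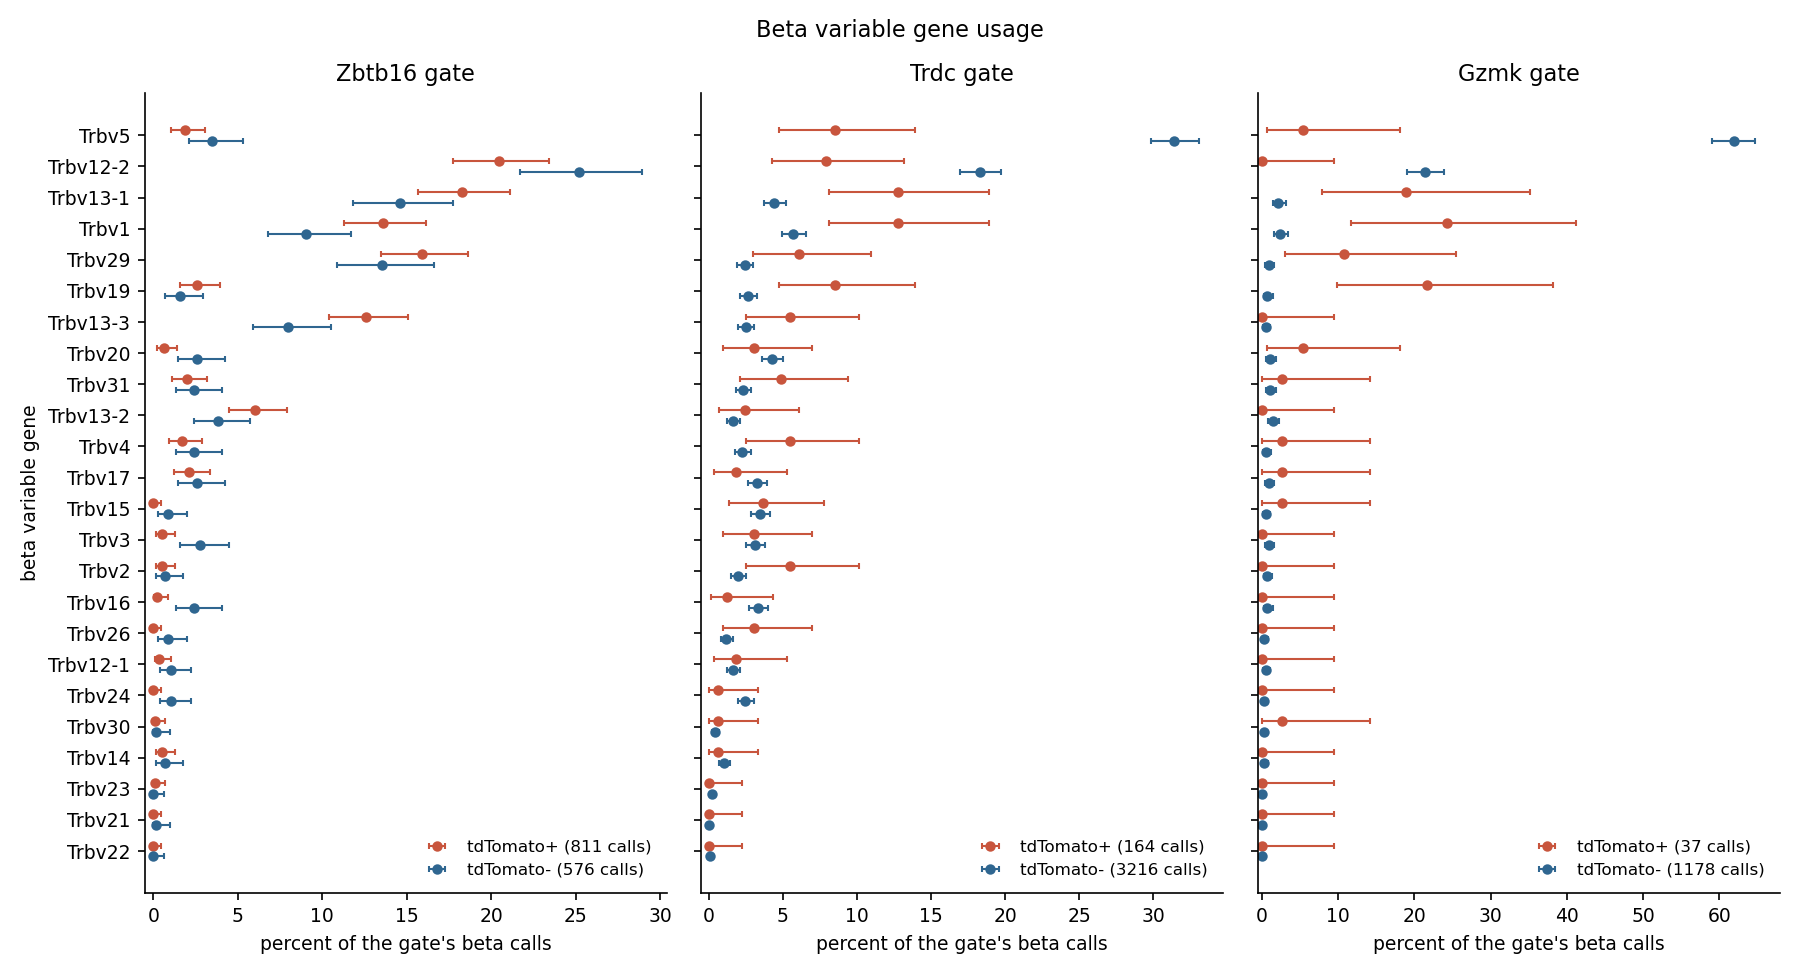
Usage of β V genes, as percent of the gate's β calls, in the Zbtb16, Trdc and Gzmk gates of the tdTomato+ (red) and tdTomato- (blue) library, with a separate horizontal scale for each gate. Points are shares and bars 95% exact binomial intervals; Trbv5 and Trbv12-2 stand apart from the other genes in the tdTomato- Trdc and Gzmk gates, and the tdTomato+ Gzmk gate rests on 37 calls.

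Trbv12-2 and Trbv13-2 were detected together. They lie 2031 bases apart, and of 1606 cells of the Cd4, Cd8b1 and Zbtb16 gates with at least 2 UMIs of Trbv12-2 and 1267 with at least 2 of Trbv13-2, 1035 had both, which is 64.4% of the first and 81.7% of the second. Over 171 pairs of β genes the median share of the rarer gene's cells was 3.84%, and the neighbours Trbv12-1 and Trbv13-1, 1939 bases apart, shared 29.0%. In the tdTomato+ Zbtb16 gate 86.7% of cells with a Trbv12-2 call also held Trbv13-2 UMIs, and among cells with another β call 15.1% held a UMI of either gene. Every 90-base window of either transcript was unique among the annotated T cell receptor V transcripts, although windows elsewhere in the genome were not searched. A cell in which neither gene had 2/3 of the UMIs reached no call.

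Counted as 1 gene, Trbv12-2 and Trbv13-2 together held 39.9% (36.9 to 43.0) of tdTomato+ and 37.7% (33.9 to 41.5) of tdTomato- Zbtb16 calls, 18.5% and 20% of Cd4 calls and 13.7% and 15.8% of Cd8b1 calls. In the Trdc gate they held 16.0% and 25.0%. Which of the pair a cell's receptor carried cannot be read from these counts.

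α usage has to be read with the copies of the locus in mind. The mouse α locus has repeated blocks, and members with d or n in their symbol are copies of plain ones. Of the 120 α genes, 39 had no 90-base window that was unique among the annotated T cell receptor V transcripts, and 22 were unique throughout, with a median of 54.4% unique windows. All 35 β genes were unique throughout. Reads of a shared window cannot be given to 1 copy, so α genes below are uncertain to the extent that their windows are shared, and subgroups, the genes that share a number, are given beside them.

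In the Cd4 gate Trav3-3 took 6.49% (4.70 to 8.70) of 632 tdTomato+ and 3.89% (2.19 to 6.33) of 386 tdTomato- α calls, Trav16n took 4.91% and 3.37%, and Trav5-4 took 3.64% and 5.18%. In the Cd8b1 gate Trav16n led, with 7.71% (6.22 to 9.44) of 1115 and 7.08% (5.52 to 8.92) of 932 calls, before Trav3-3 (6.28% and 5.15%) and Trav7-3 (5.38% and 5.79%). Trav16n had 59.4% unique windows and shared the others with Trav16 and Trav16d-dv11. Trav16n usage was higher in CD8 than in CD4 cells in both libraries, by a log2 ratio of 0.64 (0.05 to 1.29) and 1.03 (0.20 to 2.05).

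By subgroup Trav7 led both gates, with 15.7% and 16.6% of Cd4 and 17.2% and 19.8% of Cd8b1 calls over 14 genes, and Trav6 followed in the Cd4 gate, with 13.8% and 11.9%. Some α genes of the Cd8b1 gate differed between the libraries in opposite directions. For example, Trav3-1 took 3.68% of tdTomato+ and 1.5% of tdTomato- calls, a log2 ratio of 1.26 (0.39 to 2.28), and Trav7d-3 took 1.70% and 3.97%, a ratio of -1.20 (-2.10 to -0.39). Trav7d-3 shares windows with Trav7-3 and had 36.7% unique ones.

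**Figure D4:**
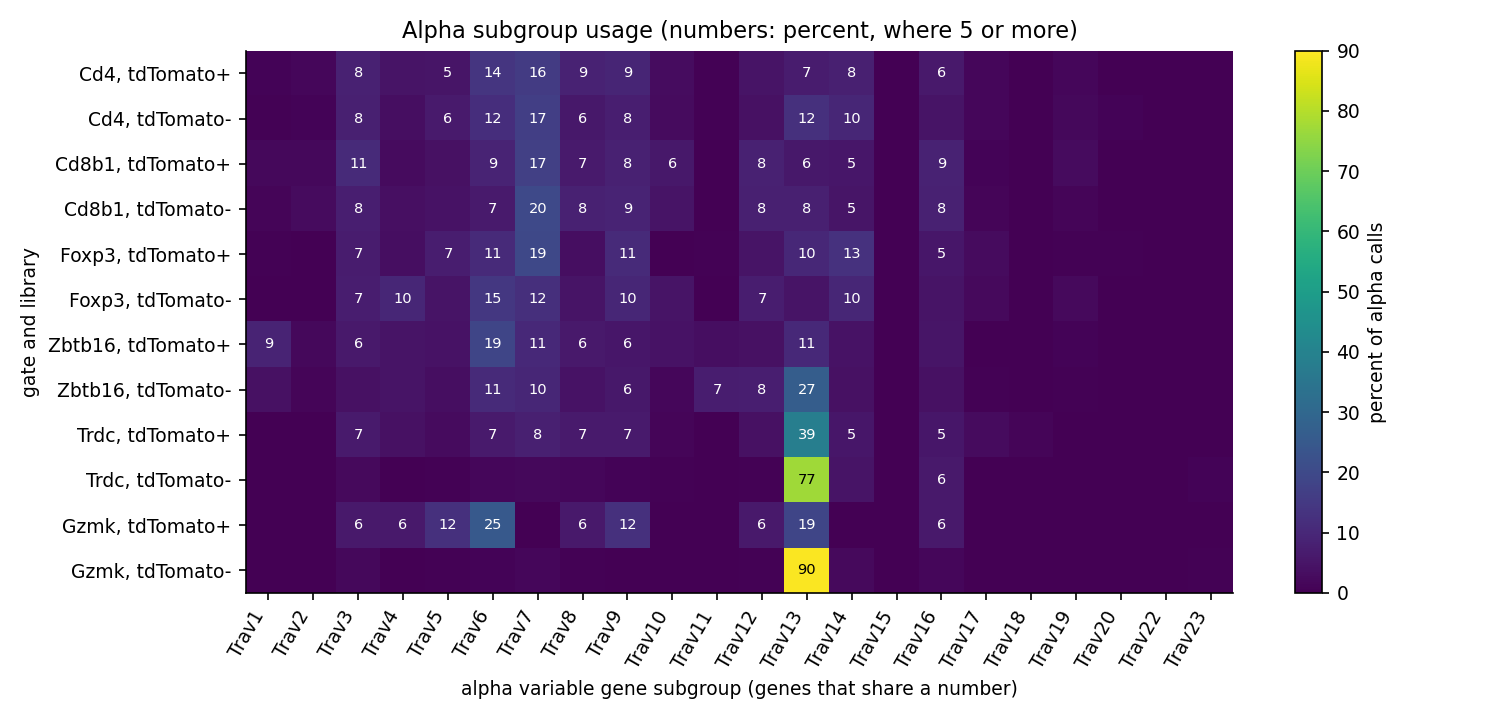
Percent of α calls that each α subgroup (columns) took in each gate and library (rows), from 0 (dark) to 90 (yellow), with the percent printed where it is 5 or more. Trav13 goes from 5.74% in tdTomato+ Cd8b1 cells to 77.3% in the tdTomato- Trdc gate and 89.5% in the tdTomato- Gzmk gate.

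The α genes of invariant T cells were most used in the Zbtb16 gate. Trav1, the MAIT gene, took 8.88% (5.93 to 12.7) of 304 tdTomato+ and 4.03% (1.95 to 7.29) of 248 tdTomato- calls there, against 0.791% and 0.518% in the Cd4 gate, a log2 ratio of 3.38 (2.09 to 5.22) and 2.71 (0.73 to 6.19). Of 23 tdTomato+ cells with a Trav1 call and a β call, 8 used Trbv13-3, 4 Trbv12-2 and 2 Trbv19. The interval of the Trav1 ratio between the libraries, 1.10 (0.05 to 2.35), was just clear of 0. The tdTomato- calls include those of γδ cells. Of 1160 tdTomato+ and 1073 tdTomato- cells of the gate, 1136 and 766 had no Trdc UMI, and Trav1 shares of these are not given. The part of γδ cells in this ratio was not tested.

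Trav11, the NKT gene, was counted mainly as its copy Trav11n. The exons of Trav11 and Trav11d were identical over 290 bases, and Trav11n differed from both at 6 positions (97.9% identity), 3 of which are in the stretch printed above. In the Zbtb16 gate the tdTomato+ library had 13 UMIs of Trav11, 9 of Trav11d and 106 of Trav11n, and the tdTomato- library 6, 13 and 90. The annotation lists Trav11n as a pseudogene. At least 1 UMI of these genes was found in 9.14% (7.54 to 10.9) of tdTomato+ and 6.34% (4.95 to 7.97) of tdTomato- Zbtb16 cells, and in 0% to 0.917% of the cells of every other gate. Reads shared by Trav11 and Trav11d cannot be given to 1 copy, so these percentages may be too low. They are not the share of NKT cells in the gate. The cells counted include those with a Trdc UMI, more of them in the tdTomato- gate, and their part in the difference was not tested. As called, Trav11n took 3.29% and 6.45% of Zbtb16 α calls and Trav11 itself 0 of 304 and 0.403%. Counted as 1 gene, the copies took 4.55% and 8.37%.

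Of 79 tdTomato+ Zbtb16 cells with a UMI of a Trav11 copy and a β call, 18 used Trbv12-2, 18 Trbv13-1, 14 Trbv29, 11 Trbv1, 8 Trbv13-3 and 4 Trbv13-2, and none used Trbv19. In the tdTomato- library, of 50 such cells, 9, 11, 8, 8, 7 and 2 did, and again none used Trbv19. Cells of the gate without any α call also used mainly these genes, with 20.8% Trbv12-2, 17.7% Trbv13-1, 17.2% Trbv29 and 14.9% Trbv1 of 576 tdTomato+ calls.

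Trav13-2 led the α calls of the γδ gates, although in the tdTomato+ Gzmk gate these calls were few. In the Trdc gate it took 33.3% (22.9 to 45.2) of 75 tdTomato+ and 71.1% (69.1 to 73.0) of 2137 tdTomato- α calls, and in the Gzmk gate 12.5% (1.55 to 38.3) of 16 and 84.1% (81.8 to 86.2) of 1126 calls. In the αβ gates it took from 0% (tdTomato- Foxp3, 41 calls) to 4.66% (tdTomato- Cd4) of α calls, except in the tdTomato- Zbtb16 gate, where γδ cells were found and the share was 15.7%. All of its windows were unique. Trav13-5 (3.93%) and Trav16 (3.84%) followed in the tdTomato- Trdc gate. Of the α/δ genes left out, Trav13-4-dv7 stood at 67.4 CPM in the tdTomato+ Trdc and 177 CPM in the tdTomato+ Gzmk gate. Trav13-2 stood lower there, at 38.5 and 26.2 CPM. In the tdTomato- gates Trav13-2 stood at 444 and 1065 CPM and Trav13-4-dv7 at 44.9 and 27.6 CPM. The δ contigs of the tdTomato- library named TRDV2-2 (388 contigs), TRDV5 (269), TRDV4 (100) and TRDV1 (43) as V genes and no member of the Trav genes described here. They also named no α/δ gene with -dv, although Trav15-2-dv6-2 stood at 201 CPM in the tdTomato- Trdc gate. Whether Trav13-2 was joined to δ segments was therefore not tested.

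The β calls of the tdTomato- Trdc gate were led by Trbv5 and Trbv12-2. Trbv5 took 31.4% (29.8 to 33.1) of 3216 tdTomato- calls and 8.54% (4.75 to 13.9) of 164 tdTomato+ calls, a log2 ratio of tdTomato+ over tdTomato- of -1.83 (-2.76 to -1.13). Trbv12-2 took 18.3% (17.0 to 19.7) and 7.93% (4.29 to 13.2), a ratio of -1.15 (-2.13 to -0.42). The tdTomato+ gate was led by Trbv1 and Trbv13-1, each with 12.8% of calls, against 5.69% and 4.42% in the tdTomato- gate. Trbv19 took 8.54% and 2.64%, a log2 ratio of 1.73 (0.76 to 2.52). These shares depend on the 2 leading genes of the tdTomato- gate. With Trbv5 and Trbv12-2 calls set aside, Trbv19 took 10.2% (5.70 to 16.6) of 137 tdTomato+ and 5.26% (4.22 to 6.46) of 1616 tdTomato- calls, and Trbv1 took 15.3% (9.75 to 22.5) and 11.3% (9.82 to 13), intervals that overlapped for both genes. Trbv13-1 took 15.3% (9.75 to 22.5) and 8.79% (7.45 to 10.3), which also overlapped. Overlap of such intervals does not exclude a difference, and no interval of the ratio was taken for these shares.

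The Gzmk gate was narrower still. In the tdTomato- library Trbv5 took 61.9% (59.0 to 64.7) and Trbv12-2 21.4% (19.1 to 23.8) of 1178 calls, and any 2 called cells shared their β gene with a frequency of 43.0%, against 14.8% in the Trdc gate and 10.0% in the Cd4 gate. In the tdTomato+ library, with 37 calls, Trbv5 took 5.41% (0.66 to 18.2) and Trbv12-2 none, and Trbv1 (24.3%), Trbv19 (21.6%) and Trbv13-1 (18.9%) led. Usage across the 25 β genes had a Pearson r between the libraries of 0.47 in the Trdc gate and 0.04 in the Gzmk gate. With the Cd8b1 gate of the same library, the Trdc gate had an r of 0.87 (tdTomato+) and 0.56 (tdTomato-). The Gzmk gate had 0.68 and 0.48. In the Gzmk gate Cd8b1 stood at 152 and 84.7 CPM and Cd4 at 25.5 and 11.4 CPM. Cd8a stood at 212 and 402 CPM there and Trac at 110 and 229 CPM. The part of αβ cells or doublets in the β calls of the γδ gates was not tested.

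On CPM 6 of 13 members of the Trdc gate at 20 CPM were 2-fold apart between the libraries, where 16.8% of 7898 genes were, and all 6 were lower in the tdTomato+ library. They were Trav13-2 (38.5 against 444 CPM), Trbv5 (14.7 against 119 CPM), Trav13-5 (4.12 against 30.9 CPM), Trbv12-2, Trbv17 and Trbv16. In the Gzmk gate 9 of 12 were apart, where 20.5% of 7996 genes were. The tdTomato+ Gzmk gate held 72 cells with a median of 13 UMIs in a β call, so that a few cells bring a member to 20 CPM. Trbv19 (49.9 against 9.60 CPM), Trbv29, Trbv1 and Trbv20 were higher in the tdTomato+ library. Trav13-2 (26.2 against 1065 CPM), Trbv5 (13.1 against 316 CPM), Trbv12-2, Trbv13-2 and Trav13-5 were lower, the last with no UMI in the tdTomato+ gate and 89.0 CPM in the tdTomato- gate. Members at 20 CPM had a median log2 ratio of -0.91 in the Trdc gate and -0.13 in the Gzmk gate, beside 0.06 and 0.09 for all genes tested.

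Without cells that held endothelial RNA, which left 189 tdTomato+ cells in the Trdc and 17 in the Gzmk gate, 11 of 15 members of the Trdc gate were apart, where 2.36% of all genes were, and 14 of 14 of the Gzmk gate, where 6.89% were. The 17 cells held 8 β calls, so the count of that gate rests on very few cells.

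The calls of Trav13-2 and Trbv5 fell in the same cells. In the tdTomato- Trdc gate 877 cells, or 12.1% of the gate, had both, whereas 15 cells had Trbv5 with another α call and 119 had Trbv5 with no α call. In the Gzmk gate 715 cells had both, 42.3% of the gate. In the tdTomato+ Trdc gate none of 468 cells had both, which allows a share of up to 0.641%, although 25 had a Trav13-2 and 14 a Trbv5 call. Trbv12-2 calls of the tdTomato- gate came with Trav13-2 in 32 cells, with another α call in 66 and with no α call in 491.

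γ contigs were compared among these cells. Of the 877 cells, 272 had a productive γ contig, and 245 of them (90.1%, 85.9 to 93.4) had the same junction, the first of those printed above. Read from the junction, 304 barcodes of the Trdc gate carried it, of which 267 had a β call and 246 (92.1%) used Trbv5, and 286 had an α call and 285 used Trav13-2. It made up 18.7% of the γ contig cells of the gate. In the whole tdTomato- library 355 barcodes carried this junction, and in the tdTomato+ library none did, of 132 barcodes with a contig.

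**Figure D5:**
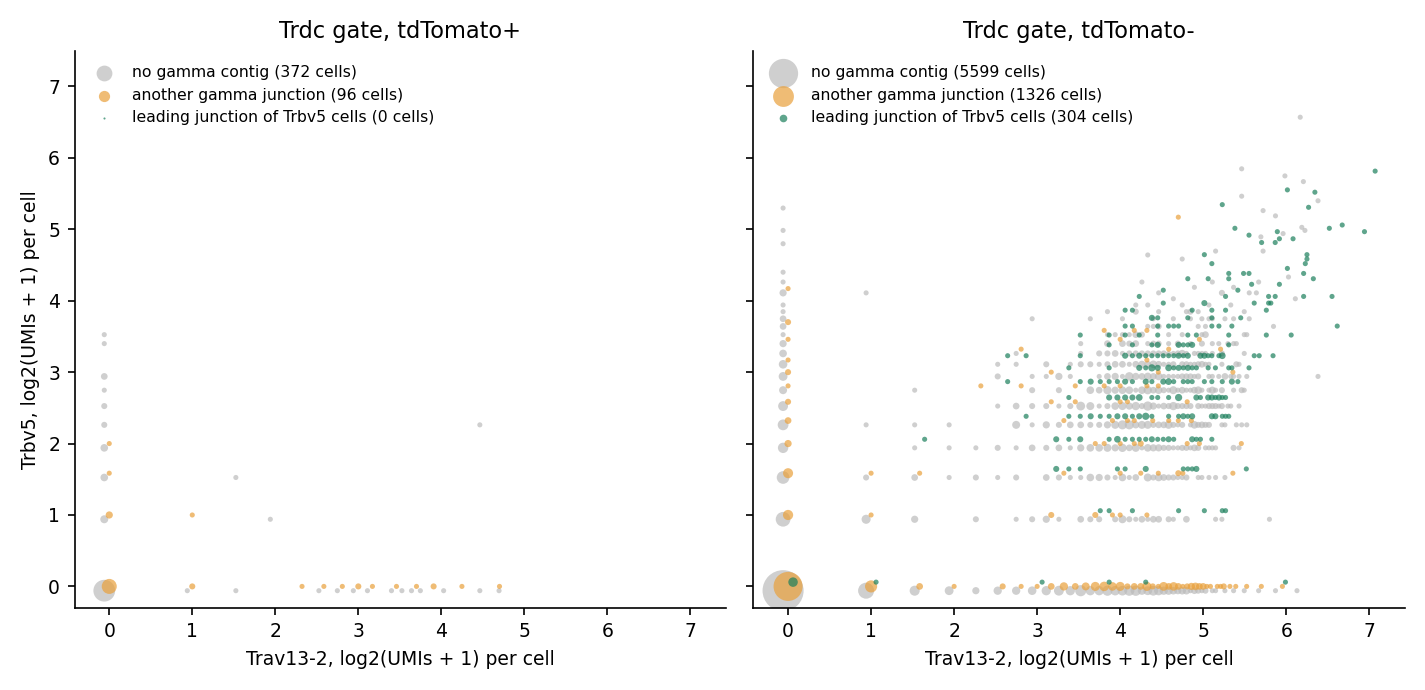
UMIs of Trav13-2 (horizontal) and Trbv5 (vertical) per cell of the Trdc gate, both as log2(UMIs + 1), in the tdTomato+ (left) and tdTomato- (right) library, by γ junction; the area of a point grows with the square root of the number of cells at that place, and the 3 classes are shifted slightly so as not to hide each other. Of 304 tdTomato- cells with the Trbv5-linked junction (green), 92.1% had at least 2 UMIs of each gene, against 3.85% of 1326 cells with another γ junction (orange).

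Cells with this junction had a median of 23 Trav13-2 and 6 Trbv5 UMIs. Cells of the gate with another γ junction had a median of 0 of each, and 51 of 1326 had at least 2 UMIs of both. No cell with a γ contig in the tdTomato+ gate did. Of cells without a γ contig, 2 of 372 in the tdTomato+ and 740 of 5599 in the tdTomato- gate had at least 2 UMIs of both.

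The Trbv12-2 cells held a second such group. Of the 589 tdTomato- Trdc gate cells with a Trbv12-2 call, 160 had a γ contig, and 101 of them (63.1%, 55.1 to 70.6) had the TRGV1 to TRGJ4 junction printed second. Of 155 barcodes of the gate with that junction, 112 had a β call and 101 (90.2%) used Trbv12-2, whereas their 21 α calls were spread, with at most 5 on 1 gene. It was found in 204 barcodes of the tdTomato- library and in none of the tdTomato+ library. Of the 589 cells with a Trbv12-2 call, 63.3% also held Trbv13-2 UMIs, so which of the pair their receptor carried is not known.

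The other junctions of the tdTomato- gate with at least 20 β calls had no β gene above 25% of their calls. The shorter TRGV4 to TRGJ1 junction, the third printed, occurred in 176 barcodes of the tdTomato- gate, of which 69 of 77 α calls were Trav13-2, but its 84 β calls were spread, with Trbv5 in 15. In the tdTomato+ gate the same junction occurred in 10 barcodes, with 4 of 4 α calls on Trav13-2 and 1 β call, on Trbv29. Thus Trav13-2 led the α calls of both TRGV4 junctions, whereas Trbv5 took 92.1% of the β calls of the longer and 17.9% of those of the shorter one. The TRGV5 junction printed last occurred in 81 barcodes, with Trav16 in 49 of 55 α calls, and a TRGV7 junction in 21 barcodes, with Trav13-5 in 13 of 14 α calls.

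In the tdTomato+ gate the most frequent junction was another TRGV4 to TRGJ1 junction, the fourth printed, with 16 of 96 γ contig barcodes (16.7%, 9.84 to 25.7), and 8 of its 9 β calls were Trbv19. The gate had 14 Trbv19 calls in all. The mice behind a library are not given, so whether cells with 1 junction came from 1 animal was not tested.

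The cells with Trav13-2 and Trbv5 also differed in other receptor and effector genes from the 5019 tdTomato- Trdc gate cells with none of Trav13-2, Trbv5 and Trbv12-2. The comparison uses calls made on the same cells and is given as a description. Trac, the α constant gene, stood at 248 CPM against 86.4 CPM, Trbc1 at 15.5 against 164 CPM and Trbc2 at 459 against 595 CPM. Trdv2-2 and Trdv5, δ V genes, stood at 47.6 and 17.3 CPM against 374 and 182 CPM. Gzmk stood at 408 against 36.0 CPM, the inhibitory receptor gene Klrc1 at 757 against 315 CPM, the proliferation gene Mki67 at 305 against 172 CPM and the cytokine gene Il17a at 68.5 against 851 CPM.

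The 557 cells with Trbv12-2 and without Trav13-2 stood at 284 CPM of Trac, 129 CPM of Trbc1 and 28.1 CPM of Trgc2. Klrc1 was at 843 CPM and Gzmk at 119 CPM in them. Trav15-1-dv6-1, an α/δ gene outside the members, stood at 392 CPM in these cells, against 6.86 CPM in the cells with Trav13-2 and Trbv5.

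When Trbv5 and Trbv12-2 calls were set aside, the remaining 1616 tdTomato- Trdc gate calls were spread over more genes. Trbv1 led with 11.3%, before Trbv13-1 (8.79%), Trbv20 (8.48%), Trbv15 (6.87%) and Trbv16 (6.62%). A group of 6 genes rare in CD4 cells, Trbv3, Trbv15, Trbv16, Trbv17, Trbv24 and Trbv26, was put together after the values were seen. Its low share of Cd4 calls follows from that choice. The group held 2.18% and 2.31% of all Cd4 calls, 6.81% and 6.67% of Cd8b1 calls, 13.4% (8.60 to 19.6) of tdTomato+ and 16.8% (15.5 to 18.1) of tdTomato- Trdc gate calls. In the Gzmk gate it held only 5.41% (0.66 to 18.2) of 37 tdTomato+ and 3.74% (2.73 to 4.98) of 1178 tdTomato- calls. Without cells that held endothelial RNA the tdTomato+ Trdc share was 21.4% (11.6 to 34.4). In the Zbtb16 gate it was 2.84% and 10.6%, and 6.09% in tdTomato- cells without a Trdc UMI.

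Trbv15 alone took 3.66% and 3.45% of Trdc gate calls and 0.0992% and 0.165% of Cd4 calls, a log2 ratio of Trdc over Cd4 of 4.74 (2.16 to 10.7) among tdTomato+ cells and 3.81 (1.88 to 9.71) among tdTomato- cells. It was thus more used in Trdc gate cells in either library, although by only 6 tdTomato+ cells.

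The other genes of receptor assembly and signalling were read from a list of 15 genes. It held the constant genes Trac, Trbc1, Trbc2, Trdc, Trgc1, Trgc2 and Trgc4, the CD3 chain genes Cd3d, Cd3e, Cd3g and Cd247, and Rag1, Rag2, Dntt and Ptcra, which cut and extend V segments or pair with the β chain before an α chain exists. None was 2-fold higher in the tdTomato+ library in any gate. In the Cd4 and Cd8b1 gates 1 and 0 of 7 genes at 20 CPM were 2-fold lower, in the Foxp3 gate 2 of 7, and in the Zbtb16, Trdc and Gzmk gates 4, 2 and 3 of 11. Of all genes tested 1.78%, 0.533%, 5.67%, 1.99%, 2.71% and 3.96% were lower by this rule in the Cd4, Cd8b1, Foxp3, Zbtb16, Trdc and Gzmk gates. Cd3e was 2-fold lower in 5 of these 6 comparisons, with 634 against 1486 CPM in the Trdc gate, and in the Cd8b1 gate it stood at 574 against 992 CPM. Several genes of the list also define the gates. CPM counts the endothelial RNA of the tdTomato+ gates in the total, and its part in these lower levels was not tested. In the T cell gates of both libraries Rag1 had no UMI, Rag2 stood at 0 to 0.0451 CPM and Ptcra at 0 to 0.219 CPM, and Dntt, the template-free polymerase gene, at 0 to 3.20 CPM.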

How the data were processed

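Per the file headers, the count matrices were made with Cell Ranger 10.0.0, and mm10 is named in the submitters' processing notes. The authors deposited UMI counts per gene and barcode, and tables of assembled γ and δ contigs, of which productive ones were used. Python 3.11.15 with numpy 2.4.6, scipy 1.17.1, pandas 2.3.3 and matplotlib 3.10.9 was used. Cells with at least 300 genes and at most 10% mitochondrial UMIs were kept, doublets were not removed, and the libraries shared 80 barcodes. Gates, calls and the 2-fold rule are as given above, and the rule was tested on simulated data. Intervals are exact binomial (shares), exact Poisson (levels) and exact conditional binomial (ratios) at 95%, and cover counting error only; a share at 0 is given the limit of 3 counts. With 1 library per sort no test was run. Named genes were the 5 most used of each locus per gate and library, the 5 largest 2-fold differences each way, and Trav11, Trav1, Trbv13-1, Trbv13-2, Trbv13-3, Trbv29, Trbv1, Trbv19 and Trbv5, together with the gate and pathway genes. Other genes were named after their values were seen. The members and lists were chosen with earlier results of these data known. Coordinates, sequences and windows are from GRCm38 with GENCODE M21.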

Additional observations from a re-analysis of the deposited data

Results flagged for a closer look

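Some β genes differed between the libraries in opposite directions in different gates, as log2 ratios of CPM of tdTomato+ over tdTomato-, and these differences between gates were not tested. Trbv1 stood at -1.36 in the Foxp3 gate and 1.83 in the Gzmk gate. Trbv14 stood at 1.39 in the Cd4 gate and -2.37 in the Foxp3 gate, and Trbv20 at -1.30 in the Cd4 gate and 1.14 in the Gzmk gate. The tdTomato- Foxp3 gate held 84 cells and the tdTomato+ Gzmk gate 72 cells.

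The 10 α/δ genes with -dv in their symbol, which were left out of the comparisons, had a summed level of 178 CPM in the tdTomato+ and 360 CPM in the tdTomato- Trdc gate. In the B cell gates, which should lack these genes, the upper 95% Poisson bounds of their level were 1.23 and 1.77 CPM.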

How the results depend on the processing

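Of the values that answer a comparison, 73 stayed within the spread or within 1.5 times the reported count under the alternatives and 37 moved, and none turned direction. The cause was not tested. Without droplets holding endothelial RNA the number of members 2-fold apart between the libraries was 3 of 21 at 20 CPM (Cd4), 1 of 27 (Cd8b1), 11 of 15 (Trdc) and 14 of 14 (Gzmk), where 1.70%, 0.578%, 2.36% and 6.89% of all genes were. With cells thinned to 3000 UMIs it was 10 of 26 (Cd4), 3 of 25 (Cd8b1) and 6 of 13 (Zbtb16), where 16.2%, 13.8% and 13.6% of all genes were. At 50 CPM in place of 20 CPM it was 3 of 8 (Cd4), 1 of 12 (Cd8b1), 9 of 14 (Foxp3), 0 of 6 (Zbtb16) and 3 of 4 (Trdc), where 18.6%, 15.3%, 23.9%, 14.6% and 16.4% of all genes were, and 0 of 6 between the Cd8b1 and Cd4 gates of the tdTomato+ library, where 2.01% were. As shares of the locus's UMIs, a setting for which no share of all genes is given, it was 3 (Cd4) and 1 (Cd8b1). With no Trdc UMI it was 0 of 9 (Zbtb16), where 14.5% of all genes were, and with contig barcodes only 11 of 15 (Trdc) and 14 of 16 (Gzmk), where 16.6% and 21.6% were.

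The share of Trdc gate cells with a β call was 29.6% (tdTomato+) without endothelial RNA, 19.8% and 30.6% when thinned, and 42.1% and 50.2% with contig barcodes only. It was 23.3% and 31.4% with at least 3 UMIs and 80% of the locus, and 50% and 57.7% with 1 UMI and over 50%. In the Gzmk gate it was 29.2% and 48.5% when thinned, 66.7% and 81.5% with 1 UMI and over 50%, and, in the tdTomato- library, 72.4% with at least 2 Gzmk UMIs and 53.8% with at least 3 UMIs and 80%. Trav11 of Zbtb16 α calls was 4.55% and 8.37% with the copies as 1 gene, and 0% in the tdTomato- library when thinned or with at least 3 UMIs and 80%. Counting copies or neighbours as 1 gene, and the alternatives for single genes, were chosen after seeing the data, and 278 of those single-gene values stayed and 50 moved.

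No paired analysis was possible because each sort had 1 library and no test was run, and leaving out a replicate would leave a sort without cells.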
